A study of Mus musculus with 8 samples.

Results

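Lysosomes were followed through 42 of their genes in the mouse corticotrope line AtT-20. The set holds soluble hydrolases, proteins of the lysosomal membrane and subunits of the proton pump that acidifies the organelle. Members were chosen by gene symbol from a list made by what the proteins do, with earlier results of these data known. All 42 were found among the 55401 genes with a value. They fall into 7 cathepsins and other proteases, 8 glycosidases, 7 genes of lipid breakdown and export, 5 membrane proteins, 7 genes of the membrane sector of the pump (V0) with its accessory proteins, and 8 genes of its cytosolic sector (V1).

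AtT-20 cells derive from a pituitary tumour and secrete peptides cut from the hormone precursor Pomc. Every library came from cells with ectopic ER-Pax7, a Pax7 protein that tamoxifen switches on, and Pax7 is the transcription factor that specifies the melanotrope cells of the pituitary. RNA was sequenced after 0, 24, 48 and 72 h of tamoxifen, with 2 libraries at each time, and these 4 groups share the line and the introduced gene. Activation of ER-Pax7, the drug itself and hours in culture cannot be told apart, because no untreated cells of matched times and no cells without ER-Pax7 were used here. The labels do not say that the replicates were separate cultures or how the ER-Pax7 cells were derived, so each p-value measures only the spread between these libraries. All errors below are SD with n = 2 unless another is named.

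The lysosome breaks down proteins, glycans, lipids and glycogen that reach it by endocytosis and autophagy. Its hydrolases work in acid, which the vacuolar H+-ATPase supplies: the V1 sector splits ATP in the cytosol and turns a rotor that moves protons through the V0 sector in the membrane. In endocrine cells the same pump acidifies the secretory granules in which prohormones such as Pomc are cut, so several of these genes serve more than the lysosome. Transcription factors of the TFEB and TFE3 family bind a palindrome with the core CACGTG in the promoters of many lysosomal genes, and such promoters have been named the CLEAR network.

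That core is shown first, because it is reported in the promoters of many lysosomal genes. It was searched in RefSeq promoters of GRCm38.p6 that run from 250 bases before to 50 bases after a start site. Promoters were matched by symbol for 34 of the 42 members. The letters CACGTG read the same on both strands, so 1 search covers both. They occurred in 12 of the 34 members (35.3%), against 787 of 6384 tested genes with a promoter (12.3%) and 8.09% of all 27025 genes with one. The longer TCACGTGA, which contains the first motif, occurred in 6 of 34 members (17.6%) and in 2.49% of tested genes. The still longer palindrome, with a G before and a C after TCACGTGA, occurred in 0 of 34 members and 0.862% of tested genes. Sequence from the promoters of 4 members follows, with CACGTG in capitals. Lamp1 is shown because its window holds 4 matches, Gaa for the course of its signal and Atp6v0b as a pump gene with 2 matches. Gla is shown as the member that passed the test below on the higher side. Positions are GRCm38.p6, the stretches of Lamp1, Gaa and Atp6v0b lie before the start site and outside every exon, and each sequence reads 5′ to 3′ on the gene's own strand.
Lamp1, chr8:13159079-13159158, plus strand: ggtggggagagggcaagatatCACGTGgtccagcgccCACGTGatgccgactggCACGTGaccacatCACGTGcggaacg
Gaa, chr11:119267786-119267865, plus strand: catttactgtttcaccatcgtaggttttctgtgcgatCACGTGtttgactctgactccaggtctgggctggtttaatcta
Atp6v0b, chr4:117887334-117887413, minus strand: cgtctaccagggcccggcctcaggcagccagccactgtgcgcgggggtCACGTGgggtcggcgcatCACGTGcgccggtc
Gla, chrX:134601215-134601244, minus strand: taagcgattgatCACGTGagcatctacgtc
Gla, chrX:134601182-134601211, minus strand: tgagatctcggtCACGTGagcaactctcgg
Each match is a description of letters and no evidence of a bound site. The matches of Gla begin 227 and 194 bases before its start site and lie in the first exon of Hnrnph2, its head-to-head neighbour. The window of Scarb2, the member that passed on the lower side, held no match, which says only that these letters are not within it.

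The libraries were similar in overall composition, with a summed signal of 164236 to 178548 and between 9516 and 9608 genes at a signal of at least 1. Across tested genes, which are not independent replicates, the 0 h libraries correlated at r = 0.994 and the later pairs at 0.978 to 0.985. None of the 6 later libraries correlated best with its own partner: replicate 2 of 24 h lay nearest to replicate 2 of 48 h (r = 0.995, against 0.984 with its partner), and replicates 1 and 2 of 72 h both lay nearest to replicate 1 of 48 h (0.989 and 0.983, against 0.978 with each other). Pomc had a mean signal of 592 and Tbx19, the factor that drives it, of 19.8. Reads at the Pax7 gene, which may include those of the introduced ER-Pax7, gave a mean of 13.1 at 0 h and 13.8 at 72 h. Of the other melanotrope markers, Pcsk2 went from a mean of 0.309 at 0 h to 0.833 at 72 h. Oacyl went from 0.0150 to 0.627. Both lay under the level needed for testing, and Drd2 was listed at 0. Of these other markers only Megf11 was tested, and its mean before tamoxifen was 4.62. Its later means, in order of time, were 0.897, 0.981 and 1.14 times that starting level. None of these differences passed the test (limma adjusted p of 0.514, 0.956 and 0.397). The receptors Crhr1 and Avpr1b, which corticotropes use to sense hypothalamic signals, were near absent at 0.0753 and 0.000317. Marker genes of macrophages, cells rich in lysosomes, summed to 0.603 to 0.820 over 12 genes; 10 of those genes had a mean below 0.1, C1qc was listed at 0 and the highest was Csf1r at 0.507. Fibroblast markers summed to 0.238 to 0.557 over 8 genes, with Col1a2 and Lum listed at 0, and endothelial markers to 0.0472 to 0.0826 over 5 genes, with Kdr listed at 0.

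Levels of the members were compared between genes on the deposited signal, read here from its values as a mean coverage per exonic base. The order of the genes rests on that reading. Psap, the precursor of the saposins that help enzymes reach sphingolipids, was the most abundant at a mean of 52.0 over the 8 libraries. Lamp1, the main glycoprotein of the lysosomal membrane, followed at 29.5. The next 6 places were held by pump genes: Atp6v0c at 17.9, Atp6v1g1 at 16.8, Atp6v1b2 at 13.6, Atp6v1a at 13.3, Atp6ap1 at 12.3 and Atp6v0b at 11.7. Atp6v1b2 and Atp6v1a did not differ beyond their spread over libraries. Gla was the lowest of the 38 genes with a mean of at least 1, at 1.29, and its neighbour in the order, Npc1, lay at the same 1.29.

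The 4 remaining members lay far below the rest and were not tested. Ctsc, which activates the serine proteases of immune granules, and Lipa, the acid lipase that frees cholesterol from its esters, were listed at 0 in all 8 libraries. Ctsh, an aminopeptidase, was listed at 0 except for 0.0129 in 24 h replicate 2 and 0.00265 in 72 h replicate 1. Ctsz, a carboxypeptidase, ranged from 0.0972 to 0.250. A value of 0 in a coverage table can be a failed estimate, and no read counts were used here to set a limit on these genes.

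**Figure D1:**
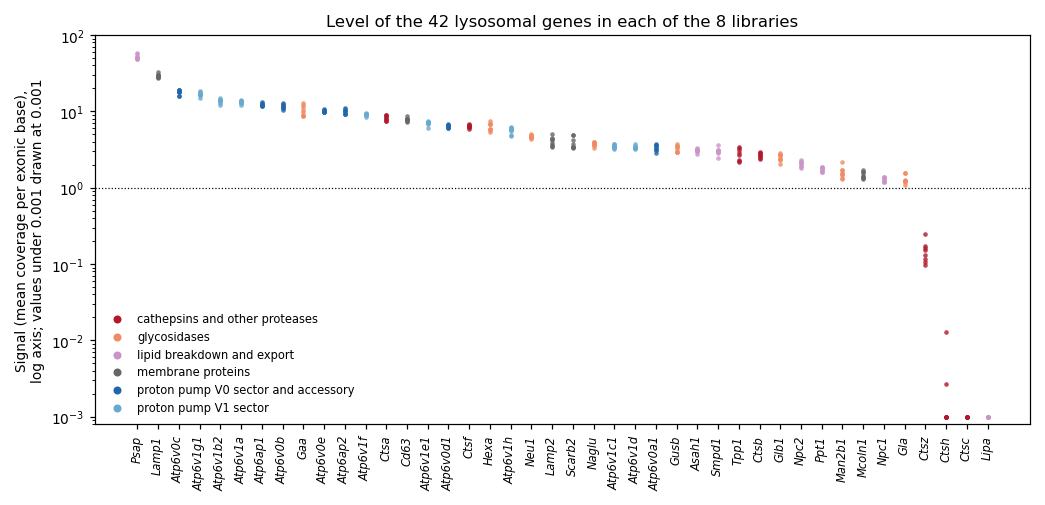
Signal of the 42 lysosomal genes in each of the 8 libraries, ordered by mean over the libraries, with points coloured by role; the vertical axis is logarithmic, values under 0.001 are drawn at 0.001 and the dotted line marks the mean of 1 needed for testing. Psap and Lamp1 stand at the top, pump genes fill the next 6 places, and Ctsz, Ctsh, Ctsc and Lipa lie below the line.

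Among the 38 tested members, 2 passed a limma adjusted p of 0.05 at 72 h, where 2.01% of all tested genes did. Both calls were lost with no filter on low values. Scarb2, a membrane receptor, fell by 48 h and was at 0.691 times its starting level at 72 h, and Gla, the α-galactosidase deficient in Fabry disease, rose to 1.38 times its starting level at 72 h. Fewer cells of a kind and less RNA per cell cannot be told apart in such bulk RNA. Differences were tested in 1 limma fit on log2(signal + 1) over the 9606 genes whose signal averaged 1 or more, with Benjamini-Hochberg adjustment over all of them. The 3 comparisons with 0 h share their 0 h libraries.

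At 24 h 0 members passed an adjusted p of 0.05, where 0.229% of all tested genes did, and the smallest adjusted p of a member was 0.181, that of Scarb2. Without adjustment 3 members were higher and 10 lower at limma p under 0.05, against 7.59% and 5.62% of all tested genes. At 48 h 1 member passed (0.552% of all tested genes), Scarb2 on the lower side (0.229%), with 4 higher and 7 lower before adjustment, against 5.32% and 5.19%. At 72 h 2 members passed (2.01% of all tested genes), Gla on the higher side (1.27%) and Scarb2 on the lower (0.739%), with 5 higher and 5 lower before adjustment, against 9.18% and 6.49%. The median difference over the members was -0.05, -0.03 and 0.01 on the log2 scale at 24, 48 and 72 h, beside 0.01, 0.00 and 0.01 over all tested genes. The SE of a member's difference had a median of 0.06, and the 95% interval lay within 0.5 of 0 for 37, 35 and 35 of the 38 members at the 3 times.

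**Figure D2:**
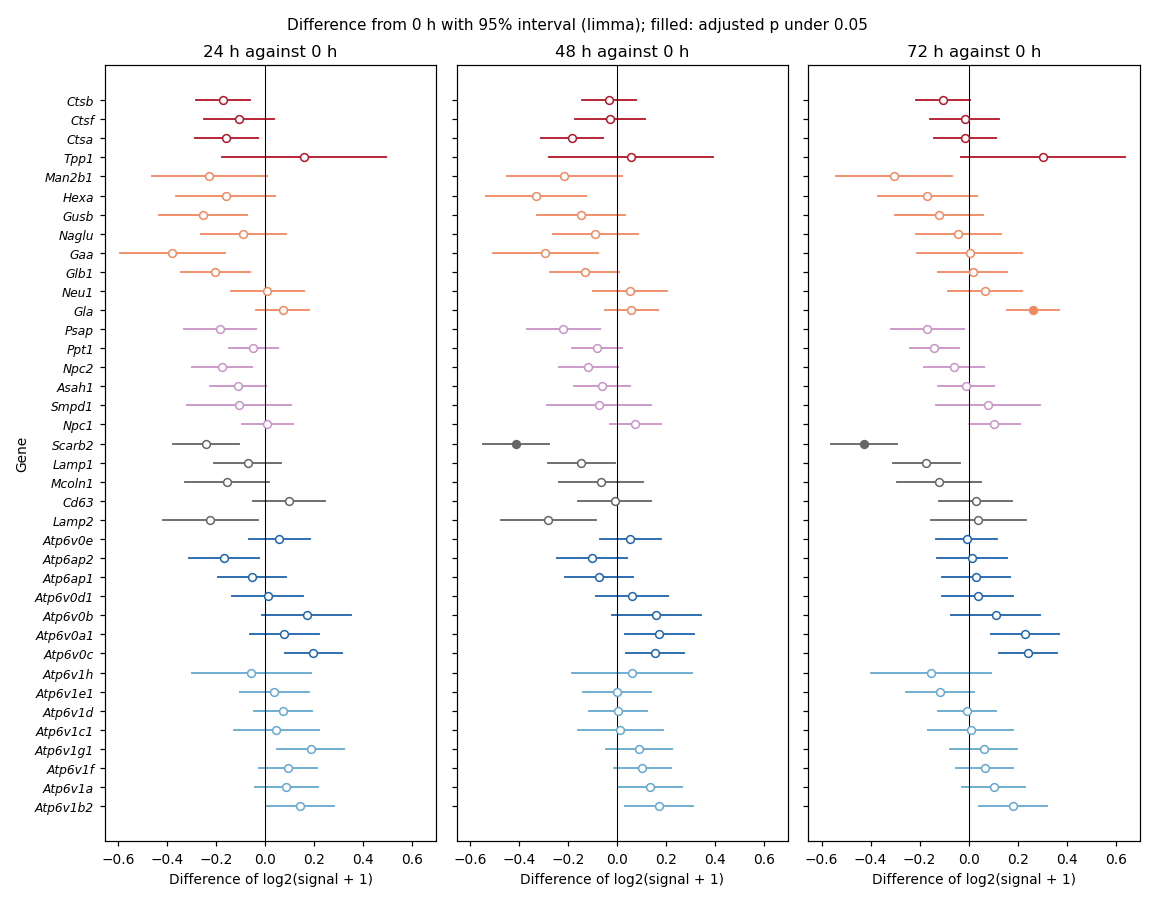
Difference of log2(signal + 1) from 0 h for the 38 tested genes at 24, 48 and 72 h, with 95% intervals from limma; colours mark roles, and filled points passed an adjusted p of 0.05. Filled points are Scarb2 at 48 h and Scarb2 and Gla at 72 h, and most other intervals cross 0.

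Membrane proteins held the member that passed on the lower side. Scarb2, also known as LIMP-2, carries β-glucocerebrosidase to the lysosome and lies at chr5:92441314-92506833 on the minus strand. Its signal was 4.91 and 4.83 at 0 h, 4.22 and 3.73 at 24 h, 3.37 and 3.46 at 48 h, and 3.41 and 3.32 at 72 h. All 6 tamoxifen libraries lay below both 0 h libraries, and the 48 h and 72 h libraries lay below both of 24 h. The mean went from 4.87 ± 0.0514 to 3.97 ± 0.345, 3.41 ± 0.0652 and 3.37 ± 0.0648. The differences on the log2(signal + 1) scale were -0.24, -0.41 and -0.43 (SE 0.06), with limma adjusted p of 0.181, 0.0359 and 0.0171. With any 1 library of 0 h, 48 h or 72 h left out, Scarb2 missed the threshold at 48 h, with limma adjusted p of 0.0750 to 0.310. In the same fits Scarb2 at 72 h missed the threshold, at limma adjusted p of 0.0502 to 0.146 and a log2 difference of -0.44 to -0.41, and with no filter on low values its adjusted p was 0.0725. Its exons overlap no exon of another gene.

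Lamp1 (chr8:13159161-13175338, plus strand) had a signal of 32.8 and 30.3 at 0 h, 30.1 and 29.9 at 24 h, 28.5 and 28.4 at 48 h, and 27.6 and 28.2 at 72 h. Every tamoxifen library lay below both 0 h libraries, but the 72 h difference of -0.17 did not pass the test (limma adjusted p = 0.209). Of the exonic bases of Lamp1, 9.31% also belong to exons of Grtp1. Lamp2, the related protein that also serves chaperone-mediated autophagy, was 4.37 and 4.53 at 0 h, 3.40 and 3.57 at 48 h, and 5.09 and 4.15 at 72 h, with limma adjusted p of 0.263 and 0.885 at the later times. Mcoln1, the calcium channel TRPML1, differed by -0.12 at 72 h (limma adjusted p = 0.490), and Cd63, a tetraspanin of late endosomes, by 0.03 (limma adjusted p = 0.893). A copy 98.0% identical to Cd63, Cd63-ps, had its own signal of 2.09 to 2.82, so reads of Cd63 may be split between them.

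The glycosidases, which take sugars off glycoproteins, glycolipids and glycogen, held the member that passed on the higher side. Gla, on the minus strand of chrX:134588149-134601125, had a signal of 1.18 and 1.09 at 0 h, 1.22 and 1.26 at 24 h, 1.24 and 1.21 at 48 h, and 1.54 and 1.58 at 72 h. The 72 h libraries lay above all 6 others, while the 24 h and 48 h libraries lay just above those of 0 h. The difference at 72 h was 0.26 (SE 0.05, limma adjusted p = 0.0383), while the earlier differences were 0.07 (limma adjusted p = 0.535) and 0.06 (limma adjusted p = 0.746). At this low signal the pseudocount of 1 shrinks the difference, so the ratio of means, 1.38, is larger than the log2 value implies. The call at 72 h was lost with any 1 library of 0 h, 48 h or 72 h left out (limma adjusted p of 0.0861 to 0.248), with no filter on low values (0.0906) and in a fit of the 0 h and 72 h libraries alone (0.0790). Hnrnph2, which shares the start region of Gla, had the same mean of 2.93 at both ends of the time course (limma adjusted p = 0.997).

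Gaa, the acid α-glucosidase that breaks down glycogen, was the most abundant glycosidase. Its signal was 12.80 and 10.55 at 0 h, 8.75 and 8.67 at 24 h, 9.78 and 8.86 at 48 h, and 11.30 and 12.03 at 72 h. The 24 h and 48 h libraries lay below both 0 h libraries and the 72 h libraries lay between them. The log2 differences of -0.38 at 24 h, -0.29 at 48 h and 0.00 at 72 h did not pass the test (limma adjusted p of 0.188, 0.289 and 0.989). Between 24 h and 72 h the difference was 0.38 (limma adjusted p = 0.201). The spread of the 0 h libraries, 11.7 ± 1.59, was the widest of the 4 times.

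Man2b1, a lysosomal α-mannosidase, had a signal of 2.19 and 1.72 at 0 h, 1.73 and 1.32 at 24 h, 1.56 and 1.51 at 48 h, and 1.48 and 1.29 at 72 h. At 72 h both libraries lay below those of 0 h, at 0.709 times the mean, with a log2 difference of -0.30 (limma adjusted p = 0.197). Glb1, the β-galactosidase of GM1 ganglioside breakdown, was at 0.822 times its 0 h mean at 24 h and 1.02 times at 72 h (limma adjusted p of 0.249 and 0.941). Gusb, the β-glucuronidase, was at 0.796 times at 24 h and 0.898 times at 72 h (limma adjusted p of 0.254 and 0.514). Hexa, the α subunit of the hexosaminidase lost in Tay-Sachs disease, was lowest at 48 h, at 0.767 times its 0 h mean (limma adjusted p = 0.199), and shares 12.8% of its exonic bases with Tmem202. Naglu, which acts on heparan sulfate, and Neu1, the sialidase, differed by -0.04 and 0.07 at 72 h (limma adjusted p of 0.860 and 0.690).

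None of the 4 tested proteases passed the limma test at any time, where 0.229%, 0.552% and 2.01% of all tested genes did at 24, 48 and 72 h. Before adjustment 2, 1 and 0 of them were lower (5.62%, 5.19% and 6.49% of all tested genes) and 0 were higher (7.59%, 5.32% and 9.18%). Ctsa, the carboxypeptidase that protects Glb1 and Neu1, had a signal of 8.78 and 8.83 at 0 h, 8.02 and 7.57 at 24 h, 7.85 and 7.43 at 48 h, and 8.91 and 8.51 at 72 h. Its 24 h and 48 h libraries lay below those of 0 h, and its 72 h libraries lay either side of them. The differences were -0.16, -0.18 and -0.01, with limma adjusted p of 0.305, 0.269 and 0.944. Ctsa shares 17.4% of its exonic bases with Neurl2 and Pltp. Ctsb, a cysteine cathepsin, was 2.85 and 2.87 at 0 h, 2.46 and 2.40 at 24 h, 2.67 and 2.89 at 48 h, and 2.58 and 2.61 at 72 h. The libraries of 24 h and 72 h lay below those of 0 h, with limma adjusted p of 0.226 and 0.340. Tpp1, a tripeptidyl peptidase, was 2.66 and 2.17 at 0 h, 3.38 and 2.30 at 24 h, 2.84 and 2.27 at 48 h, and 3.12 and 3.29 at 72 h. Its 72 h libraries lay above those of 0 h, by 0.30 with an SE of 0.14 (limma adjusted p = 0.363), and its replicates at 24 h were wide apart. Ctsf, another cysteine cathepsin, differed by -0.02 at 72 h (limma adjusted p = 0.941).

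Lipid genes were led in abundance by Psap. Its signal was 58.4 and 56.4 at 0 h, 48.7 and 52.1 at 24 h, 49.96 and 48.38 at 48 h, and 49.9 and 52.0 at 72 h. All 6 tamoxifen libraries lay below both 0 h libraries, with means of 0.879, 0.857 and 0.888 times that of 0 h, and none of the differences passed the test (limma adjusted p of 0.305, 0.249 and 0.260). Ppt1, which removes palmitate from proteins, was 1.89 and 1.87 at 0 h, 1.79 and 1.78 at 24 h, 1.78 and 1.67 at 48 h, and 1.61 and 1.61 at 72 h. Its 72 h libraries were the lowest, by -0.14 against 0 h (SE 0.04, limma adjusted p = 0.169).

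The cholesterol exporters Npc1, of the membrane, and Npc2, of the lumen, were at 1.14 and 0.941 times their 0 h means at 72 h (limma adjusted p of 0.315 and 0.648). Npc2 had been at 0.833 times at 24 h (limma adjusted p = 0.247). Asah1, the acid ceramidase, and Smpd1, the acid sphingomyelinase, differed by -0.01 and 0.08 at 72 h (limma adjusted p of 0.946 and 0.754).

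**Figure D3:**
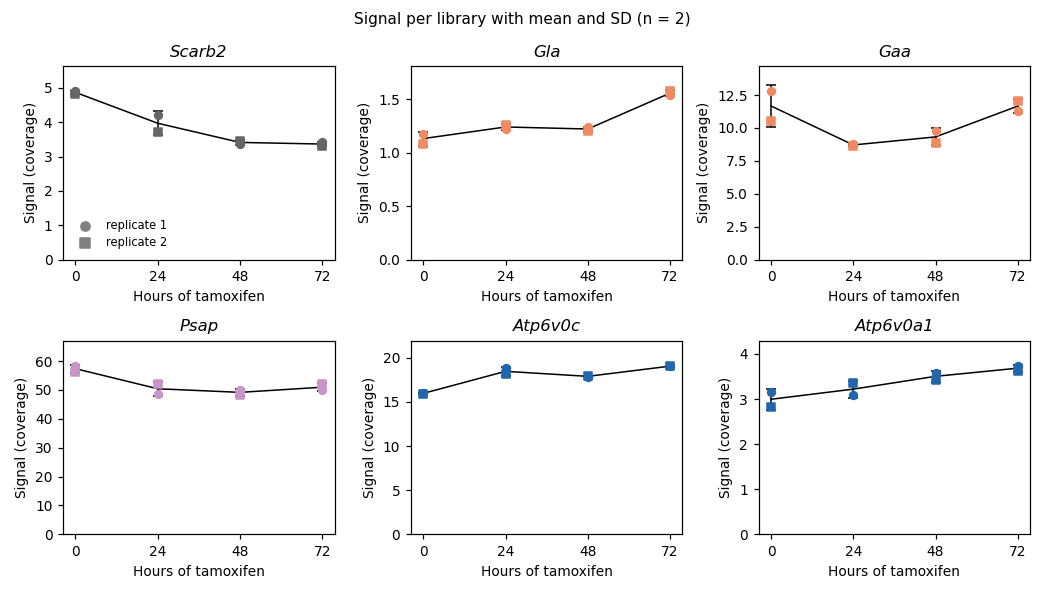
Signal of Scarb2, Gla, Gaa, Psap, Atp6v0c and Atp6v0a1 in each library against hours of tamoxifen, on axes that start at 0; circles and squares are replicates 1 and 2 and the black line joins means with SD bars (n = 2). Scarb2 goes from 4.87 to 3.37 and Gla from 1.13 to 1.56, while Gaa starts at 11.7, dips to 8.71 and returns to 11.7.

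In the V0 sector none of the 7 genes passed the limma test at any time, where 0.229%, 0.552% and 2.01% of all tested genes did. Before adjustment 1, 2 and 2 were higher at 24, 48 and 72 h (7.59%, 5.32% and 9.18% of all tested genes) and 1, 0 and 0 lower (5.62%, 5.19% and 6.49%). Atp6v0c, the proteolipid that forms the rotor ring, came closest: its signal was 16.0 and 15.9 at 0 h, 18.8 and 18.1 at 24 h, 17.84 and 17.97 at 48 h, and 19.0 and 19.1 at 72 h. All 6 tamoxifen libraries lay above both 0 h libraries, and the difference of 0.24 at 72 h (SE 0.05) had a limma adjusted p of 0.0663. With genes of a mean of at least 5 that p was 0.0442, and with no intensity trend it was 0.0464. Under every other setting with no single library left out it missed the threshold, at a limma adjusted p of 0.0523 to 0.0907. With 1 library left out the difference was 0.24 to 0.25. Atp6v0c-ps2, a processed copy 99.8% identical over 465 bases, had a signal of 3.68 to 4.95 and a 72 h to 0 h ratio of 1.23, beside 1.19 for Atp6v0c, so the 2 genes cannot be separated with certainty.

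Atp6v0a1, the large membrane subunit that lines the proton channel, was 3.16 and 2.83 at 0 h, 3.09 and 3.35 at 24 h, 3.58 and 3.42 at 48 h, and 3.74 and 3.63 at 72 h. Its 48 h and 72 h libraries lay above both of 0 h, with a difference of 0.23 at 72 h (limma adjusted p = 0.113). Atp6v0b, a second proteolipid, was at 1.14, 1.13 and 1.09 times its 0 h mean (limma adjusted p of 0.408, 0.528 and 0.554), and 11.8% of its exonic bases belong also to the antisense gene Gm12841, whose mean signal was 13.1. Atp6v0d1, which links the sectors, and Atp6v0e, a small subunit, differed by 0.04 and -0.01 at 72 h (limma adjusted p of 0.852 and 0.966). The accessory proteins Atp6ap1 and Atp6ap2, which help the pump assemble, differed by 0.03 and 0.01 at 72 h (limma adjusted p of 0.875 and 0.952). Atp6ap2 had been at 0.879 times its 0 h mean at 24 h (limma adjusted p = 0.319), the opposite side of 0 from Atp6v0c.

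None of the 8 genes of the V1 sector passed either. Before adjustment 2, 2 and 1 were higher at the 3 times, against 7.59%, 5.32% and 9.18% of all tested genes, and 0 were lower, against 5.62%, 5.19% and 6.49%. Atp6v1g1, a subunit of the stalk, was the most abundant: 16.5 and 15.1 at 0 h, 18.3 and 17.9 at 24 h, 16.8 and 16.9 at 48 h, and 16.6 and 16.4 at 72 h. The 24 h libraries stood highest, 0.19 above 0 h (limma adjusted p = 0.264). Gm13453, a processed copy of Atp6v1g1, had a signal of 2.38 to 3.09. Atp6v1b2, which shares the ATP-splitting sites with Atp6v1a, was 12.7 and 12.1 at 0 h, 13.6 and 14.0 at 24 h, 13.9 and 14.3 at 48 h, and 13.6 and 14.8 at 72 h. All 6 tamoxifen libraries lay above those of 0 h, by 0.18 at 72 h (limma adjusted p = 0.193). Atp6v1h, a regulatory subunit, was 5.71 and 5.81 at 0 h, 6.24 and 4.85 at 24 h, 6.04 and 6.08 at 48 h, and 5.48 and 4.71 at 72 h. Its 72 h libraries lay below those of 0 h and its 24 h libraries on either side, with a 72 h difference of -0.15 (limma adjusted p = 0.545).

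Atp6v1a, the catalytic subunit, was at 1.08 times its 0 h mean at 72 h (limma adjusted p = 0.435). Atp6v1f and Atp6v1d, parts of the central shaft, were at 1.05 and 0.993 times (limma adjusted p of 0.595 and 0.966). Atp6v1e1 of the outer stalk and Atp6v1c1, which ties the stalks to V0, were at 0.913 and 1.01 times (limma adjusted p of 0.406 and 0.974). The 3 V1 genes below 0 at 72 h were thus Atp6v1h, Atp6v1e1 and Atp6v1d.

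Pump genes and the other members lay mostly on opposite sides of 0 at 24 h and 48 h. Of the 15 pump genes, 12, 12 and 11 had a log2 difference above 0 at 24, 48 and 72 h, where 55.7%, 52.3% and 53.3% of all tested genes did. The medians of the pump genes were 0.07, 0.06 and 0.04. Of the 23 tested hydrolase and membrane genes, 18, 19 and 14 were below 0, with medians of -0.15, -0.09 and -0.02. The groups of libraries did not overlap for 9 pump genes that were higher and 1 that was lower at 24 h, and for 1 hydrolase or membrane gene that was higher and 15 that were lower, against 24.4% and 17.8% of all tested genes. At 48 h those counts were 8 and 2 for the pump and 2 and 15 for the others, against 24.3% and 22% of all tested genes. At 72 h they were 6 and 2 for the pump and 3 and 10 for the others, against 27.4% and 22.4%. No test of the lists was made, the 0 h libraries enter every one of these differences, and members of 1 library are not replicates.

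The summed signal puts the same values in units of coverage, and the same 0 h libraries enter it. Over the 15 pump genes it was 140 and 135 at 0 h, 147 and 145 at 24 h, 146 and 146 at 48 h, and 148 and 144 at 72 h, so all 6 tamoxifen libraries stood above both 0 h libraries. Over the 27 hydrolase and membrane genes it was 182 and 172 at 0 h, 158 and 159 at 24 h, 157 and 155 at 48 h, and 164 and 165 at 72 h, all below 0 h. Psap and Lamp1 make up much of the second sum. Their means were 57.4 and 31.6 at 0 h and 51.0 and 27.9 at 72 h. The second sum was thus lower at 72 h although the median gene difference was then -0.02. The 9 corticotrope markers also had a lower sum at 24 h and 48 h: 815 and 804 at 0 h, 638 and 703 at 24 h, 698 and 686 at 48 h, and 822 and 841 at 72 h. Pomc and Chga made up most of that sum, and the markers did not move as a set. Of the 6 tested corticotrope markers, 5, 2 and 1 were below 0 at 24, 48 and 72 h, and 1, 4 and 5 above. Among them Pomc was at 0.836, 0.865 and 1.07 times its 0 h mean (limma adjusted p of 0.247, 0.377 and 0.626) and Chga, a granule protein, at 0.767, 0.748 and 0.787 times (limma adjusted p of 0.0961, 0.0556 and 0.0542). Their part in the sums of the lysosomal genes was not tested. Members with CACGTG in their promoter window and members without it had similar medians: -0.08 and -0.05 at 24 h, -0.05 and -0.07 at 48 h, and -0.00193 and 0.01 at 72 h, over 12 and 19 tested genes.

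**Figure D4:**
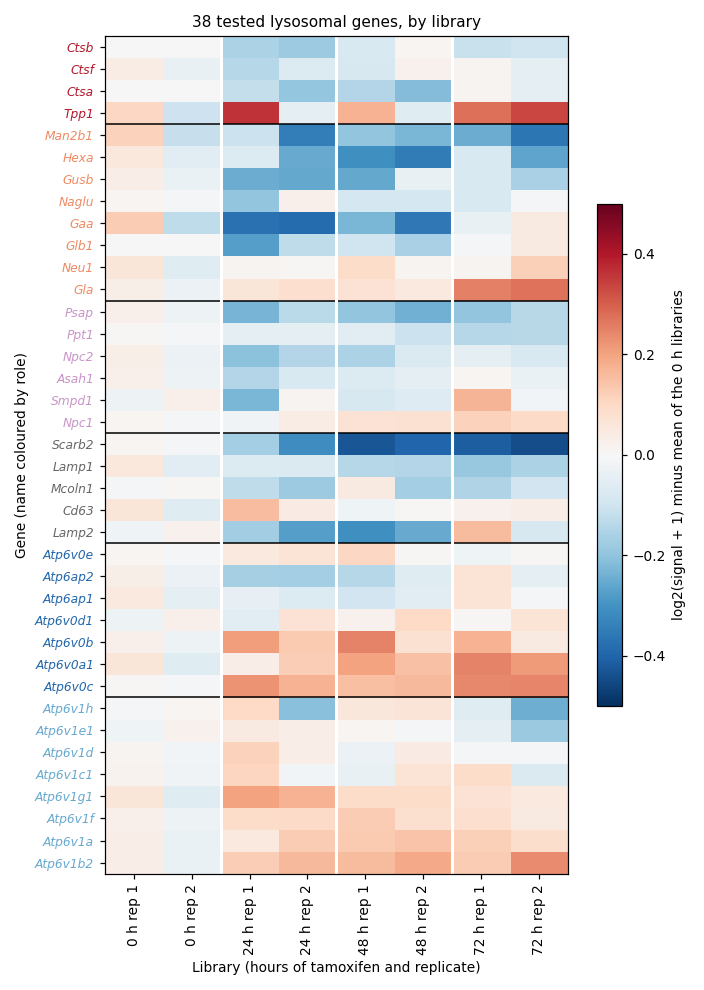
Difference of log2(signal + 1) in each library from the mean of the 0 h libraries for the 38 tested genes (rows, names coloured by role and ordered within a role by the 72 h difference); red is higher, blue is lower and the colour scale ends at 0.5 either way. Scarb2 is blue in all 6 tamoxifen libraries, hydrolase rows are mostly blue at 24 h and 48 h, and most pump rows are pale red.

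Between 24 h and 72 h 0 members passed the test (0.0208% of all tested genes), with a smallest limma adjusted p of 0.201. Before adjustment 7 members were higher and 2 lower (7.24% and 6.32% of all tested genes). The comparison leaves out the 0 h libraries but shares its 24 h and 72 h libraries with those above. It is therefore not a separate check of them. Of the 23 hydrolase and membrane genes 17 lay above 0, where 47.1% of all tested genes did, with a median of 0.09. The groups did not overlap for 12 of them that were higher and 4 that were lower, against 20.7% and 21.6% of all tested genes. Of the 15 pump genes 7 lay above 0 and 8 below, with a median of -0.03. Their groups did not overlap for 4 that were higher and 5 that were lower, against the same shares. Gaa at 0.38, Lamp2 at 0.26, Glb1 at 0.22 and Gla at 0.19 were on the higher side, and Scarb2 at -0.19 on the lower, none of them past the threshold (limma adjusted p of 0.201, 0.264, 0.223, 0.201 and 0.256).

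Other genes of the pathway were counted from 5 lists. Of 22 tested among 40 further hydrolases and their cofactors, 2 passed as higher at 72 h and 0 as lower, with a median of 0.00. Over all tested genes 1.27% and 0.739% did. Before adjustment 2 were higher and 3 lower at 72 h, against 9.18% and 6.49% of all tested genes. Galns, which removes sulfate from keratan sulfate, had a signal of 0.586 and 0.724 at 0 h, 0.926 and 1.29 at 24 h, 1.55 and 1.28 at 48 h, and 1.73 and 1.87 at 72 h. Every tamoxifen library lay above both of 0 h, and at 72 h the mean was 2.75 times that of 0 h (limma adjusted p = 0.0157). The 0 h libraries of Galns are under 1, so it entered the test through its later libraries. Its call was lost with any 1 library of 0 h or 72 h left out (limma adjusted p of 0.0927 to 0.143) and with no filter (0.0926). Arsg, a sulfatase of heparan sulfate breakdown, was outside the test, since its low later libraries took its mean to 0.895, and it is named after its values were seen. Its signal was 1.499 and 1.448 at 0 h, 1.004 and 0.888 at 24 h, 0.560 and 0.626 at 48 h, and 0.631 and 0.507 at 72 h. Every tamoxifen library lay below both of 0 h, and at 72 h the mean was 0.386 times that of 0 h, with a limma adjusted p of 0.0402 in the fit without a filter and 0.00594 in one with 0.1 as both the lowest mean and the pseudocount. The filter thus took in a hydrolase that was high late and left out one that was low late. Lgmn, an asparaginyl endopeptidase that trims cathepsins, was 3.40 and 3.08 at 0 h, 3.90 and 3.76 at 24 h, 3.69 and 3.89 at 48 h, and 4.74 and 4.20 at 72 h. Its tamoxifen libraries all lay above 0 h, and the 72 h mean was 1.38 times as high (limma adjusted p = 0.0410). That call was lost with any 1 library of 0 h, 48 h or 72 h left out (limma adjusted p of 0.0867 to 0.261), with no filter (0.141) and with only the 0 h and 72 h libraries fitted (0.0779).

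Of 20 tested among 34 other membrane and transport proteins, 0 fell at 72 h (0.739% of all tested genes) and 1 rose (1.27%). This was Litaf, a small protein of the late endosomal membrane, at 6.64 and 6.60 at 0 h, 7.07 and 8.56 at 24 h, 9.09 and 8.98 at 48 h, and 9.30 and 9.41 at 72 h. The 48 h and 72 h libraries lay above all earlier ones, and the 72 h mean was 1.41 times that of 0 h (limma adjusted p = 0.0409). The call was lost with any 1 library of 0 h, 48 h or 72 h left out (limma adjusted p of 0.0916 to 0.248), with no filter (0.149) and under quantile or trimmed mean scaling (0.0599 and 0.0581). At 72 h 2.01% of all tested genes passed. No gene did among 13 tested of 24 other pump and assembly genes, 29 tested of 41 genes of enzyme sorting and lysosome fusion, and 31 tested of 38 autophagy genes. Their medians at 72 h were 0.02, 0.03 and 0.05, beside 0.01 over all tested genes. Before adjustment 0, 1 and 2 genes of those 3 lists were higher at 72 h, against 9.18% of all tested genes, and 0, 0 and 1 lower, against 6.49%. At 24 h and 48 h 0 genes of the 5 lists passed (0.229% and 0.552% of all tested genes). Before adjustment 0 to 3 genes a list were higher (7.59% and 5.32%) and 0 to 4 lower (5.62% and 5.19%). The most on the lower side were 4 of the 22 further hydrolases, at 24 h and again at 48 h. In that list 2 genes were higher at each of those times.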

How the data were processed

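RNA of 8 libraries, 4 times with 2 each, was grouped by the labels' titles. Per the labels' protocols, column-purified RNA was depleted of ribosomal RNA. The labels' molecule and library source fields name genomic DNA instead; the values were taken as RNA, as the protocol and the series design have it. The authors deposited 1 normalized value a gene and library, taken from its values to be a signal: mean coverage by reads of a gene's merged exons. The submitters' processing notes list HISAT2 2.2, SAMtools 1.12 and deepTools 3.5, and mm10 and GRCm38 as builds. Not given in the sources used here are read depth, scaling rule, counting tool, use of strand and annotation release, so overlapping and antisense genes cannot be separated and no counting intervals are given. Of the 42 members, 41 have the same identifier and span in GENCODE M21, and the exception is Gla.

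Genes whose signal averaged 1 or more were tested with limma 3.58.1 in R 4.3.3 on log2(signal + 1). All 8 libraries entered a fit with time as the term, an intensity trend and 4 residual degrees of freedom. The fit was also run on simulated data with independent noise in each library. That run cannot check the p-values where real libraries deviate together. Adjusted p-values are Benjamini-Hochberg over 9606 genes at a threshold of 0.05. A fold on this scale understates changes of low genes. Near copies were sought at 95% identity over at least 200 bases. Motifs were searched in RefSeq promoters, and coordinates are 1-based.

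The members and lists were chosen with earlier results of these data known. Every member is named. Values in all libraries are given for members past the threshold in any comparison and, in each role group, for the most abundant member and the 2 tested members with the largest 72 h difference; other values by library were chosen after they were seen. Other pathway genes are named where they passed. Alternatives changed the pseudocount, filter, scaling, trend, samples fitted, replicate block and left-out library.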

Additional observations from a re-analysis of the deposited data

How the results depend on the processing

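With 2 libraries a time and no read depth, small differences could not be resolved: the 95% interval of a member had a median half-width of 0.14 on the log2 scale. A total of 18 alternatives were run, 1 of them added after seeing the data (the lower floor: a mean of at least 0.1 with a pseudocount of 0.1). Of 31 differences of the 15 members described in full, the values under settings other than a left-out library kept direction and side of the threshold in 290 cases, lost the threshold in 6, gained it in 2 and changed sign in 1. Most of these differences had not passed in the main fit, so the 290 cases say little about the calls. The 6 losses all fell on the calls of Scarb2 at 48 h and 72 h and of Gla at 72 h.

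Replicate numbers did not pair the libraries over all 4 times, though they did deviate together at the first 3: deviations of same-numbered libraries correlated between times at 0.177, 0.338 and 0.402 among 0, 24 and 48 h but at -0.0163, 0.0989 and 0.0726 with 72 h. With a replicate block 0 members passed at 48 h, Scarb2 having a limma adjusted p of 0.0604, and 1, Scarb2, at 72 h, Gla having 0.0649; among the pathway genes Litaf was lost at 0.0521. With no filter 0 members passed at 48 h and 0 at 72 h; with a mean of at least 5 the counts were 0 and 1, Scarb2 being outside that test and Atp6v0c passing; with only the 2 groups of the contrast 1 passed at 72 h. With 1 library left out, members passing ranged from 0 to 1 at 48 h and from 0 to 3 at 72 h, the 0s coming from each library of 0 h, 48 h and 72 h and the 3s from each of 24 h. Other pathway genes passing ranged from 0 to 1 at 24 h, 0 to 3 at 48 h and 0 to 4 at 72 h. They numbered 1 at 48 h with the lower floor, 3 at 48 h with only the 2 groups, 1 at 72 h with no filter and 1 at 72 h with a mean of at least 5.

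Medians stayed small. With a mean of at least 5 the median of all members was 0.0109 at 24 h, -0.000103 at 48 h and 0.0144 for 72 h against 24 h, the last being 0.0734 with quantile normalization and 0.0527 with the lower floor. The pump median was 0.0408 at 24 h with quantile normalization, and for 72 h against 24 h -0.00692 with a mean of at least 5 and -0.00419 with quantile normalization. The hydrolase and membrane median at 24 h was -0.0855 with a pseudocount of 3 and -0.112 with no filter. At 48 h it was -0.119 with a pseudocount of 0.1 and -0.183 with a mean of at least 5. For 72 h against 24 h it was 0.101 with a pseudocount of 0.1, 0.0510 with 3, 0.0156 with a mean of at least 5, 0.102 with quantile normalization and 0.114 with the lower floor. With 1 library left out, medians for all members ranged from -0.0670 to -0.0289 at 24 h, -0.0531 to -0.0228 at 48 h, -0.0200 to 0.0185 at 72 h and 0.0353 to 0.0583 for 72 h against 24 h. For the pump they ranged from 0.0549 to 0.0917, 0.0614 to 0.0904, 0.00200 to 0.0811 and -0.0467 to -0.00554, and for hydrolase and membrane genes from -0.155 to -0.113, -0.0952 to -0.0865, -0.0547 to -0.0169 and 0.0656 to 0.106. The 72 h difference of Gaa was -0.00558 with trimmed mean rescaling and ranged from -0.124 without 0 h replicate 2, through -0.0372 without 72 h replicate 2, to 0.133 without 0 h replicate 1. That of Ctsa ranged from -0.0435 without 72 h replicate 1 to 0.0147 without 72 h replicate 2. Where a value moved, the cause was not tested.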

Other observations

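Alternative subunits of the proton pump, looked up after their values were seen, differed widely in level. Atp6v0e2 had a mean signal of 7.31 over the 8 libraries, beside 10.1 for Atp6v0e. The a subunits Tcirg1, Atp6v0a2 and Atp6v0a4 were at 1.06, 0.479 and 0.0450, beside 3.35 for Atp6v0a1. Atp6v1c2, at 0.498, and Atp6v1g2, at 0.578, lay well under Atp6v1c1 at 3.505 and Atp6v1g1 at 16.8. Atp6v1b1 and Atp6v1e2 were at 0.0130 and 0.0140, and Atp6v0d2 and Atp6v1g3 were listed at 0.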
